A study of Glycine max with 72 samples.

Results

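The 200 soybean genes described here were low in dry seeds relative to their later levels, had risen by 8 h of imbibition and were still high at radicle emergence. They were chosen on their levels in 3 lines of normal phytic acid content, namely 2MWT, 2MWT-L and also 2MWT-N. The level is the CPM, a gene's count divided by the total count of its library and multiplied by 1000000, with S1, S2 and S3 as the mean CPM at stages 1, 2 and 3. Of 56044 genes in the tables, 7340 had an S2 of at least 20 CPM and an absolute log2((S3 + 1)/(S2 + 1)) under 1, and the 200 with the highest log2((min(S2, S3) + 1)/(S1 + 1)) among these are the members. The stage levels of those 3 lines chose the members and are given as a description with no test. Tests were made only in the 5 lines the choice did not use.

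RNA-seq was performed on 8 lines at 3 stages with 3 libraries for each, 10 seeds to a sample. Stage 1 was dry seed, stage 2 was seed imbibed for 8 h, and stage 3 was seed at radicle emergence. Seeds at stages 2 and 3 lost their seed coats and radicles before extraction and those at stage 1 did not. Before imbibition the seeds for stages 2 and 3 were also treated with hypochlorite, washed in water and dried overnight. Stage, tissue and this treatment thus cannot be told apart between stage 1 and the other stages. 1MWT and *1mlpa* came from the cross Essex × V99-5089 and differed in the mips1 mutation, which is carried by *1mlpa* and affects a synthase that makes the inositol backbone of phytic acid. 2MWT, 2MWT-L, 2MWT-N, 3MWT, *2mlpa* and *3mlpa* came from the cross CX-1834 × V99-5089. In this cross mrp-l and mrp-n are mutations of 2 genes for ABC transporters of phytic acid. *2mlpa* carried mrp-l and mrp-n, 2MWT-L carried mrp-n alone, 2MWT-N carried mrp-l alone, 2MWT carried neither, *3mlpa* carried mips1, mrp-l and mrp-n, and 3MWT carried none of the 3. Each genotype is represented by 1 line, so genotype and line cannot be told apart.

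In a seed, germination starts with water uptake. Metabolism and transcription resume within hours, messages stored during maturation are lost, and new transcripts for respiration, transport, cell wall loosening and growth appear before the radicle breaks the seed coat. Before oxygen can enter freely, imbibed legume seeds also ferment pyruvate to ethanol and lactate.

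The 71 libraries used held between 20295984 and 39759526 counts, with a median of 28412327. The library of 2MWT-N at stage 2, replicate 1, held 12679 counts and was left out, as it was in the choice of members. The dry library of 3MWT, replicate 2, had counts in 24686 genes and every other library used in at least 30065. The 6 late embryogenesis abundant (LEA) genes that the study's gene lists name, markers of mature seed, summed to between 11443 and 30616 CPM at stage 1, 10898 and 20734 CPM at stage 2, and 289 and 2822 CPM at stage 3. None of the 6 was at 0 in any library. A second list, 4 seed storage protein genes that the study names, had median sums of 284, 470 and 171 CPM at stages 1, 2 and 3. Its sums ranged from 78.7 to 10394, 140 to 6350 and 77.9 to 735 CPM, so its median rose from stage 1 to stage 2. Fold changes from stage 1 depended on the scaling. With TMM factors the median log2 change of all genes from stage 1 to stage 2 lay between 0.12 and 0.33 in the 5 tested lines, and with library totals it lay between 1.00 and 1.74. CPM values below are per library total, and the fitted log2 fold changes use TMM factors.

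In the normal phytic acid lines the median member stood at 1.64 CPM in dry seed (S1), 54.5 CPM at stage 2 and 61.6 CPM at stage 3. The fold from S1 to S2 ran from 12.9 to 131 with a median of 19.9. In samples of whole tissue, fewer cells of a type and less RNA per cell cannot be told apart. In all 200 members the lowest of the 8 stage 2 libraries lay above the highest of the 9 stage 1 libraries, and the same held for stage 3 in 199. The stage 2 and stage 3 libraries overlapped in 185 members, and S3 was above S2 in 136 and below it in 64. There were 74 members under 1 CPM in dry seed and 9 at 10 CPM or more, with a highest S1 of 40.3 CPM, and 30 had no count at all in at least 1 dry library. At the limit of rank, Glyma.18G041400, Glyma.03G098600 and Glyma.16G063200 were inside with 3.70, 3.69 and 3.69 on the ranked log2 scale. Glyma.20G240500, Glyma.18G003500 and Glyma.09G225600 were outside with 3.69, 3.69 and 3.69, so the edge is not a gap in the data. The members nearest the lower limit of S2 were Glyma.19G033500 with 20.2 CPM and Glyma.05G175700 with 20.5 CPM, and the genes just outside it were Glyma.13G156600 and Glyma.13G090300, with 19.99 and 19.96 CPM. On the stage 3 to stage 2 limit, Glyma.16G045000 and Glyma.10G291300 were inside with log2 ratios of 0.99 and 0.96, and Glyma.06G116300 and Glyma.03G011200 were outside with 1.00 and 1.01.

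The member with the highest rank, Glyma.04G100400 (chromosome 4, 9219564 to 9221412, a gene of 1 exon), ranged from 0 to 0.668 CPM with a median of 0.131 CPM over the 9 dry libraries of the normal lines. At stage 2 it ranged from 99.1 to 212 CPM with a median of 173 CPM, and at stage 3 from 91.9 to 294 CPM with a median of 226 CPM. The stage 2 and stage 3 ranges overlap and the dry libraries lie far below both. The next by rank, Glyma.07G243500 (chromosome 7, 42331425 to 42332476), had medians of 3.17, 560 and 502 CPM at the 3 stages, and its libraries lay between 1.28 and 8.73 CPM in dry seed, 394 and 638 CPM at 8 h, and 384 and 1371 CPM at stage 3. Its near neighbour on the chromosome, Glyma.07G243700 (42336731 to 42337216), had medians of 1.69, 294 and 268 CPM with ranges of 0.985 to 4.50, 209 to 310 and 212 to 652 CPM. Both genes thus rank near the top, with 4255 bases between them and 1 annotated gene, Glyma.07G243600, in that gap. That gene overlaps Glyma.07G243700 on the same strand and stood at 390 CPM at stage 2, and since the counting dropped reads that fall in several genes, the level of Glyma.07G243700 is uncertain.

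Among the other highest ranks, a pair was close to silent in dry seed and had higher medians at stage 3 than at stage 2. Glyma.10G011000 had medians of 0.105, 50.7 and 81.6 CPM, with ranges of 0 to 0.432, 34.8 to 64.8 and 48.4 to 104 CPM. Glyma.06G089600 had medians of 0.0703, 52.5 and 80.1 CPM, with ranges of 0 to 0.724, 27 to 67.5 and 41.8 to 106 CPM. In both, the stage 2 and stage 3 libraries overlap. Glyma.17G066600 followed the same course, with medians of 0.211, 42.3 and 77.3 CPM, and Glyma.06G102100 had medians of 0.328, 78.9 and 87.9 CPM. Glyma.18G071500 had medians of 1.77, 161 and 201 CPM, and Glyma.01G031500 had 1.03, 82.8 and 104 CPM. Glyma.02G039700 went the other way after stage 2, with medians of 0.492, 115 and 80.7 CPM and overlapping libraries. Glyma.17G164100 was a high member with medians of 6.06, 314 and 520 CPM. The widest spread at stage 3 among these was that of Glyma.01G238800, from 6.12 to 338 CPM with a median of 30.2 CPM, against 53.8 to 189 CPM at stage 2 and 0.196 to 1.41 CPM in dry seed.

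**Figure D1:**
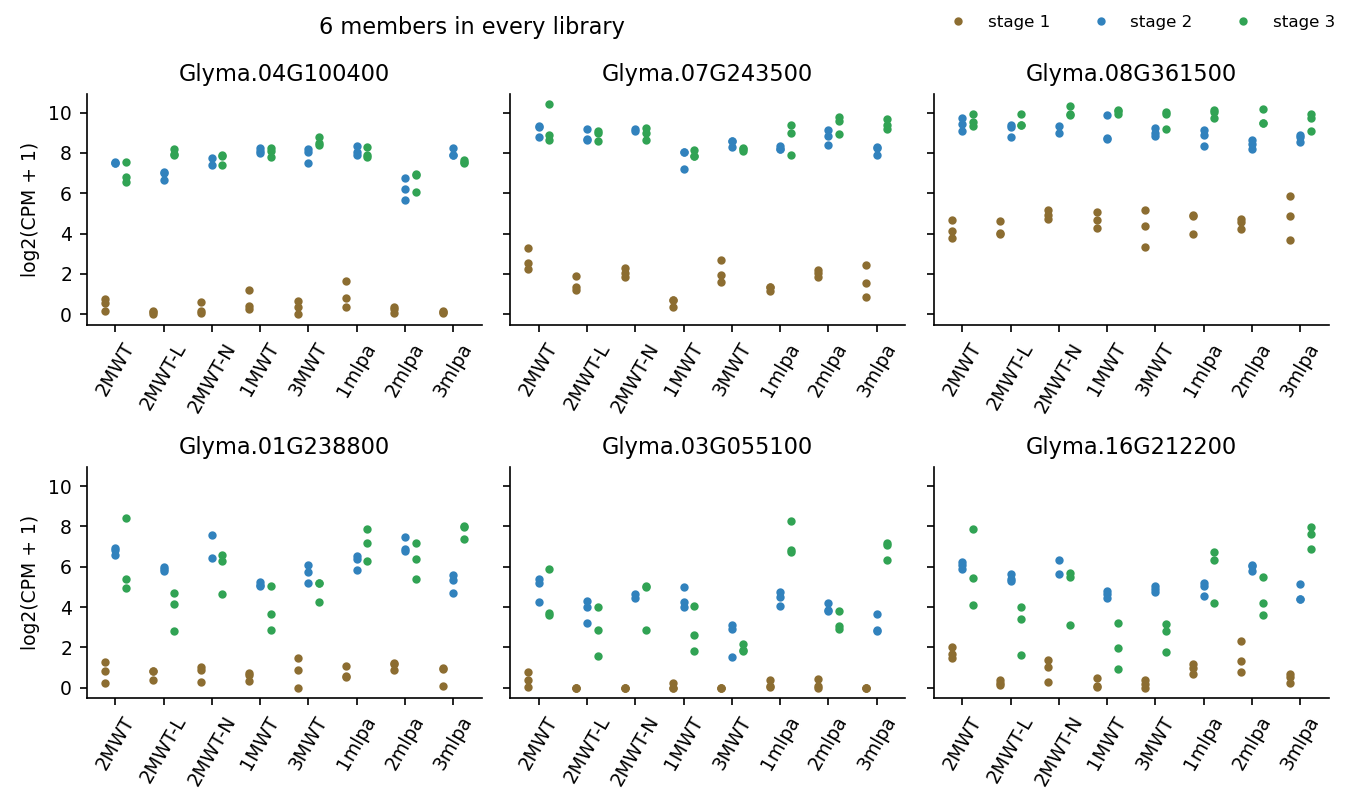
CPM of 6 members on a log2(CPM + 1) scale for each library (points) of the 8 lines at stages 1, 2 and 3, without the library left out. Within each line the dry libraries lie below the stage 2 libraries for all 6 genes. At stage 3 Glyma.01G238800, Glyma.03G055100 and Glyma.16G212200 separate, with *1mlpa* and *3mlpa* above 1MWT and 3MWT.

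The most abundant members by stage 2 CPM were Glyma.08G361500, with medians of 23.8, 628 and 947 CPM at the 3 stages, and Glyma.19G052400, with medians of 34.9, 578 and 1092 CPM. Their stage 3 libraries, from 647 to 1270 and from 804 to 1370 CPM, reached above every stage 2 library, the highest of which were 845 and 743 CPM. Glyma.05G041600 had medians of 13.4, 399 and 449 CPM, Glyma.10G270200 had 10.7, 384 and 425 CPM, and Glyma.11G077700 had 16.5, 372 and 358 CPM. Per kb of exon the order changed. Glyma.07G243500 was highest at stage 2 with 575 CPM per kb, followed by Glyma.07G243700 with 557, Glyma.11G077700 with 229 and Glyma.19G052400 with 213, and Glyma.08G361500 came to 92.2 CPM per kb. The median member had 20.7 CPM per kb at stage 2, close to the 21.6 of all genes that met both limits. The members had a median exon length of 2542 bases against 2136 and a median of 6 exons against 8, and 22 of them (11%) had a single exon against 6.58%. Chromosomes 18 and 6 each held 17 members, 8.50% of the 200 against 4.71% and 5.91% of the genes meeting both limits. Members lay within 100 kb of another member in 11 pairs. These are descriptions of the annotation, with no test.

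A homolog in Arabidopsis or a product name was given for 29 of the 200 members in the gene lists of the study, and 171 had neither. Those lists were made for genes that differed in *lpa* lines, so the 29 are not a random sample of the members. The pathway lists searched for words in the product names found 1 member each under transport and low oxygen and 0 under the others, too few for any count by function. Roles given here are those of the Arabidopsis homologs. Among transporters, Glyma.01G238800 is the homolog of STP13, a hexose carrier (97.2 CPM at stage 2 and 72.6 at stage 3, S2 and S3). Glyma.16G062600 is the homolog of LHT1, an amino acid carrier (141 and 98.8 CPM). Glyma.06G145100 is the homolog of AZG1, a purine carrier (22.6 and 24.9 CPM), and Glyma.06G191300 is the homolog of an ABC transporter of the A family (165 and 91.6 CPM). Dry seed held between 0.0523 and 5.59 CPM of these 4.

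The fermentation genes were represented by Glyma.03G055100, the homolog of a pyruvate decarboxylase, with 0.119, 22.7 and 19.4 CPM at the 3 stages, and by Glyma.05G058100, the homolog of a lactate dehydrogenase, with 7.64, 115 and 140 CPM. Pyruvate decarboxylase makes the first step from pyruvate to ethanol. Cell wall members were Glyma.19G033500, the homolog of COBRA, a membrane-anchored protein of oriented cell expansion (0.174, 20.2 and 15.2 CPM), Glyma.11G096700, the homolog of the expansin-like EXLA1 (1.56, 46.8 and 39.6 CPM), and Glyma.01G081300, an alpha-xylosidase, which trims xyloglucan (0.575, 39.8 and 56.3 CPM). Glyma.08G078900, the homolog of the polygalacturonase inhibitor PGIP1, had 0.248, 25.4 and 38.5 CPM. Among regulators, Glyma.01G178000, the homolog of the brassinosteroid-response factor BZR1, was the most abundant at stage 3 with 2.48, 100 and 150 CPM. The homologs of WRKY15, Glyma.17G168900 and Glyma.05G096500, had 3.57, 83.2 and 124 CPM and 3.58, 78.2 and 100 CPM, and that of WRKY6, Glyma.09G005700, had 1.81, 59.8 and 38.8 CPM. The homologs of a membrane-bound NAC factor, Glyma.02G222300, Glyma.06G138100 and Glyma.04G226700, had 108, 48 and 23.1 CPM at stage 2. Glyma.14G093700, the homolog of the abscisic acid receptor PYL2, had 0.141, 24.8 and 26 CPM. Close soybean paralogs such as the WRKY15 and NAC pairs may have lost reads in counting, which used reads with a single position only.

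In every line the members together moved from a trace of the library to a small but visible part of it. Over the normal lines 2MWT, 2MWT-L and 2MWT-N they held between 0.0369% and 0.0852% of a dry library, between 1.28% and 1.96% at stage 2, and between 1.54% and 2.45% at stage 3. The unused normal lines had like shares, from 1.44% to 1.96% at stage 2 and 2.11% to 2.23% at stage 3 in 1MWT, and from 1.23% to 1.61% and 1.67% to 2.09% in 3MWT. In the *lpa* lines the stage 2 shares were 1.35% to 1.56% in *1mlpa*, 0.949% to 1.21% in *2mlpa* and 1.22% to 1.33% in *3mlpa*. At stage 3 they were 2.66% to 2.90%, 1.96% to 2.16% and 2.21% to 2.68%. The 3 libraries of *1mlpa* at stage 3 thus lay above all other libraries of the series apart from 1 of *3mlpa*, which reached 2.68%, and the *1mlpa* and 1MWT libraries of that stage did not overlap.

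**Figure D2:**
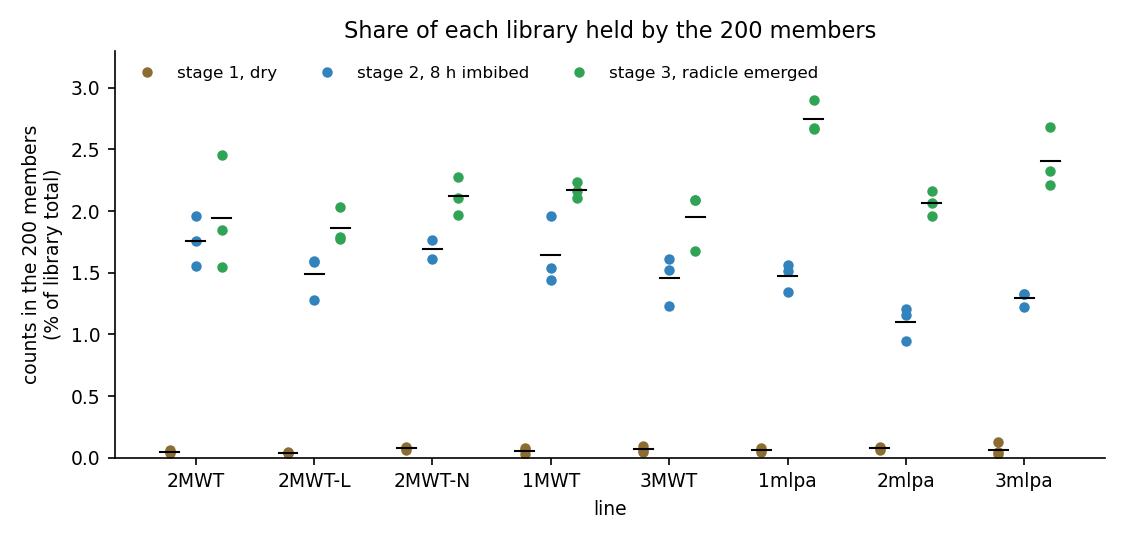
Percent of each library's total count held by the 200 members, by line and stage, each point 1 library. All dry libraries are at or below 0.127%, the stage 2 libraries lie between 0.949% and 1.96%, and the stage 3 libraries between 1.54% and 2.90%.

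Applied to each line on its own libraries, the same rule chose 147, 145 and 164 of the 200 in 2MWT, 2MWT-L and 2MWT-N, which it had used together. In the unused lines it chose 110 in 1MWT, 120 in 3MWT, 80 in *1mlpa*, 86 in *3mlpa* and 91 in *2mlpa*. Members chosen in all 8 lines numbered 8, namely Glyma.07G243700, Glyma.18G071500, Glyma.02G039700, Glyma.02G222300, Glyma.16G019700, Glyma.11G116700, Glyma.10G256400 and Glyma.18G085100, and 18 were chosen in none of the 5 unused lines. The rule drops genes that change 2-fold after stage 2. The stage 3 mean CPM was more than 2-fold above stage 2 in 39 members in 1MWT, 19 in 3MWT, 103 in *1mlpa*, 86 in *3mlpa* and 87 in *2mlpa*. The members' median log2((S3 + 1)/(S2 + 1)) within each line was 0.34, 0.40, 1.03, 0.90 and 0.90 in that order. Over all genes that met both limits it was 0.05, 0.15, 0.20, 0.21 and 0.35. The share of those genes more than 2-fold above stage 2 was not counted.

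The rise by 8 h was found in all 5 unused lines. A gene was called where it changed more than 2-fold with a Benjamini-Hochberg adjusted p (FDR) under 0.01 by edgeR's quasi-likelihood test. From stage 1 to stage 2, 200 of the 200 members rose in 1MWT, where 29.1% of all genes tested were called higher. The numbers were 199 in *1mlpa* (27.8% of all genes), 198 in 3MWT (25.5%), 198 in *3mlpa* (17.9%) and 200 in *2mlpa* (18.2%). The median log2 fold changes of the members were 3.83, 3.65, 3.68, 3.36 and 3.15 in that order, against 0.30, 0.30, 0.33, 0.24 and 0.12 for all genes. From stage 1 to stage 3, 199 rose in 1MWT (35.9% of all genes), 199 in *1mlpa* (37.3%), 198 in 3MWT (33.2%), 199 in *3mlpa* (28.9%) and 199 in *2mlpa* (31.2%). In each of these 10 comparisons the libraries of every member at the later stage lay above all dry libraries in CPM. Among all genes this held at stage 2 for 72.9% in 1MWT, 75.2% in *1mlpa*, 71.9% in 3MWT, 67.7% in *3mlpa* and 62.1% in *2mlpa*, and at stage 3 for 74.2%, 77.2%, 74.3%, 69.9% and 72.5%.

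For the most abundant member by CPM, Glyma.08G361500, the log2 fold change from stage 1 to stage 2 was 3.13 ± 0.28 (SE) in 1MWT and 2.66 ± 0.39 (SE) in *3mlpa*. Glyma.07G243500 stood at 0.308, 0.637 and 0.644 CPM in the dry libraries of 1MWT and at 259, 148 and 260 CPM at stage 2, a log2 fold change of 7.32 ± 0.44 (SE, n = 3 against 3, edgeR adjusted p = 2.17e-10). In *2mlpa* it stood at 3.15, 2.58 and 3.63 CPM in dry seed and at 334, 567 and 461 CPM at stage 2, a log2 fold change of 6.31 ± 0.31 (SE). In both lines the groups were far apart.

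Few members were not called. Glyma.07G252100 had the medians 12.5, 181 and 195 CPM in the lines used by the rule. In *1mlpa* it stood at 5.58, 14.3 and 26.4 CPM in dry seed and at 53.7, 154 and 120 CPM at stage 2, and its log2 fold change of 1.54 ± 0.49 (SE) had an edgeR adjusted p of 0.0101. It also missed the threshold at stage 2 in 3MWT (1.83, adjusted p = 0.0126) and *3mlpa* (1.61, adjusted p = 0.0289), although its groups did not overlap in CPM. Glyma.10G065900 missed it in 3MWT at stage 2 (1.98, edgeR adjusted p = 0.0128) and at stage 3 (1.92, adjusted p = 0.0118), and its dry libraries there were 4.22, 2.30 and 15.3 CPM. Glyma.17G120500 missed it at stage 2 in *3mlpa* (1.79, adjusted p = 0.0161). Glyma.17G242000 had the lowest median log2 fold change to stage 2 over the 5 lines, 1.59, followed by Glyma.07G252100 with 1.83 and Glyma.06G093400 with 2.06. At stage 3 Glyma.17G242000 had log2 fold changes of 0.84 in 1MWT and 0.83 in 3MWT against dry seed (edgeR adjusted p = 0.0106 and 0.0552). Glyma.11G077700, a member with 304 to 405 CPM at stage 2 in *1mlpa*, stood at 54.9, 37.5 and 71.6 CPM in dry seed and 315, 225 and 193 CPM at stage 3, which with TMM factors was a log2 fold change of 0.31 (adjusted p = 0.249), and in *3mlpa* of 0.82 (adjusted p = 0.0184). The remaining one was Glyma.18G011600, with 0.59 at stage 3 in *2mlpa* (adjusted p = 0.0724), where dry libraries already held 36, 32 and 21.8 CPM.

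Few members changed between 8 h and radicle emergence in the normal lines. In 3MWT 1 member rose and 1 fell from stage 2 to stage 3, where 9.26% and 10.6% of all genes did. In 1MWT 15 rose and 9 fell (12.6% and 14.5% of all genes). In *1mlpa* 32 rose and 2 fell (15.5% and 14.8%), in *3mlpa* 24 rose and 4 fell (9.51% and 10.2%), and in *2mlpa* 26 rose and 19 fell (17.2% and 17.2%). The share of members that rose was below the background in 1MWT, 3MWT and *2mlpa* and near it in *1mlpa* and *3mlpa*, and the share that fell was below the background in all 5 lines. The members had median log2 fold changes of 0.15 in 1MWT, 0.07 in 3MWT, 0.59 in *1mlpa*, 0.50 in *3mlpa* and 0.29 in *2mlpa*, and those of all genes lay between 0.00 and 0.04. On library totals the median of all genes lay between 0.23 and 0.70. The numbers that rose and fell were then 22 and 7 in 1MWT, 4 and 1 in 3MWT, 84 and 0 in *1mlpa*, 29 and 1 in *3mlpa*, and 87 and 1 in *2mlpa*. Of all genes, on the same scaling, 16.6%, 12.7%, 26.6%, 13.8% and 33.7% rose and 11%, 6.46%, 8.54%, 5.66% and 9.07% fell in that order. Without 1MWT stage 2 replicate 2, the number changed in 1MWT was 38 in place of 24. The number in 3MWT was 5 without 3MWT stage 1 replicate 2, 4 without *3mlpa* stage 3 replicate 1, and 1 without 3MWT replicate 1 or 2 of stage 2 or 2 or 3 of stage 3, or *3mlpa* replicate 1 or 2 of stage 2.

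**Figure D3:**
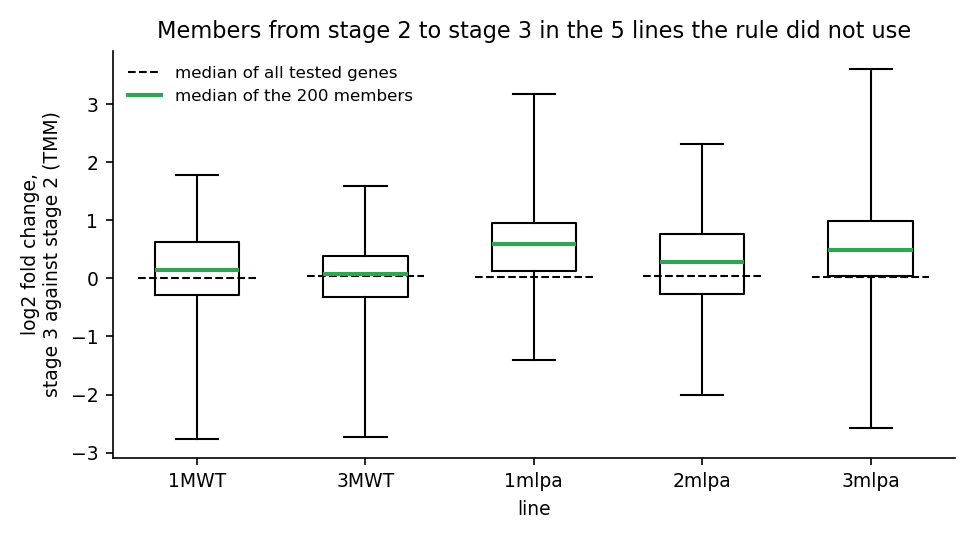
Log2 fold change from stage 2 to stage 3 of the members, fitted with TMM factors, in the 5 lines the choice did not use. Boxes are quartiles with the median, whiskers reach the lowest and highest member, and dashes are the median of all genes tested. The member medians are 0.15 in 1MWT, 0.59 in *1mlpa*, 0.07 in 3MWT, 0.50 in *3mlpa* and 0.29 in *2mlpa*, and all-gene medians are near 0.

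The gene that rose in 3MWT, Glyma.20G210900, went from 21.4, 22.5 and 12.6 CPM to 61.9, 61.1 and 66.3 CPM, a log2 fold change of 1.41 ± 0.37 (SE, edgeR adjusted p = 0.0064), and it was also the largest riser in 1MWT (1.78 ± 0.26, SE). The gene that fell in 3MWT was Glyma.16G212200, from 25.7, 28.8 and 32.2 CPM to 2.46, 7.95 and 5.98 CPM (−2.74 ± 0.45, SE). It also fell in 1MWT, from 24.4, 20.7 and 26.5 CPM to 0.880, 2.89 and 8.33 CPM, and in *2mlpa*, from 54.4, 64.8 and 66.6 CPM to 11.1, 17.5 and 43.6 CPM. In *3mlpa* the same gene rose, from 20.5, 34.9 and 20.3 CPM to 197, 119 and 249 CPM (2.49 ± 0.44, SE), and in *1mlpa* it was not called, with 36, 22.6 and 32.6 CPM at stage 2 and 17.2, 79.3 and 106 CPM at stage 3. Glyma.08G083300 was the member that rose in all 3 *lpa* lines. It went from 7.90, 10.8 and 16.1 CPM to 68.7, 49.8 and 67.9 CPM in *1mlpa*, from 8.29, 8.46 and 4.18 CPM to 27.2, 48.7 and 33.1 CPM in *3mlpa*, and from 6.68, 6.93 and 8.92 CPM to 39.6, 26.7 and 16 CPM in *2mlpa*. Glyma.20G114200, with no count or under 1 CPM in dry seed, rose in *1mlpa* from 18.5, 11.8 and 13.4 CPM to 140, 145 and 257 CPM (3.17 ± 0.36, SE) and in *3mlpa* from 11.8, 14.4 and 8.51 CPM to 135, 220 and 180 CPM (3.55 ± 0.45, SE). Of the NAC homologs, Glyma.04G226700 fell in *3mlpa* from 96.0, 106 and 83.6 CPM to 26.3, 20.5 and 17.1 CPM (−2.58 ± 0.49, SE), and Glyma.06G138100 fell there from 78.2, 70.5 and 72.8 CPM to 35.5, 26.4 and 28.3 CPM. The members named in this paragraph were chosen after their values were seen, apart from Glyma.16G212200.

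The change from stage 2 to stage 3 was then compared between the *lpa* line and its normal line by an interaction term added after these values had been seen. It was larger in *1mlpa* than in 1MWT for 1 member, where 0.106% of all genes were, namely Glyma.19G033500 (a log2 difference of 3.05 ± 0.48, SE, edgeR adjusted p = 0.0052), and 49 members had an unadjusted p under 0.05. It was larger in *3mlpa* than in 3MWT for 3, where 0.127% of all genes were. These were Glyma.16G212200 (5.23 ± 0.63, SE), Glyma.03G055100 (4.70 ± 0.63, SE) and Glyma.08G078900 (3.21 ± 0.40, SE), and 39 members had an unadjusted p under 0.05. The single call in *1mlpa* was lost without any 1 of 10 libraries of stages 2 and 3, and 4 members were called without 1MWT stage 1 replicate 1 or stage 3 replicate 3. In *3mlpa* 7 were called without 3MWT stage 1 replicate 2. The median of the members was 0.31 in the first comparison and 0.36 in the second, against 0.03 and −0.03 for all genes. None was smaller at these thresholds, as were 0.0193% and 0.0065% of all genes. Between dry seed and stage 2 the rise was smaller in *1mlpa* than in 1MWT for 4 members and larger for 0 (0.415% and 0.219% of all genes). It differed between *3mlpa* and 3MWT for 0 (0.013% smaller and 0.0065% larger), with 34 members at an unadjusted p under 0.05. For the latter DESeq2 called 1 member larger and 7 smaller, and 149 and 602 of all genes. The number of all genes with an unadjusted p under 0.05 was not counted, so the 49, 39 and 34 members have no background. Between dry seed and stage 3 the rise was larger for 6 and smaller for 5 in *1mlpa* (1.41% and 1.11%), and larger for 1 and smaller for 0 in *3mlpa* (0.699% and 0.445%).

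In dry seed, 18 members were higher and 5 lower in *1mlpa* than in 1MWT, where 4.42% and 4.11% of all genes were. On library totals the split was 10 and 6 (2.44% and 5.72% of all genes). The largest difference was in Glyma.13G068800, which had 0.424, 0.478 and 0.468 CPM in 1MWT and 13.7, 3.88 and 29.4 CPM in *1mlpa*, a log2 fold change of 5.31 ± 0.61 (SE, n = 3 against 3, edgeR adjusted p = 1.05e-05). The groups do not overlap and the *1mlpa* libraries are uneven. At stage 2 the same gene stood at 489 to 783 CPM in 1MWT and 738 to 1002 CPM in *1mlpa*, but at 26.1 to 29.2 CPM in 3MWT and 5.08 to 8.59 CPM in *3mlpa*, so that it was higher in the lines of the cross with Essex. Glyma.16G105300 had 0.270, 0.717 and 0.585 CPM in 1MWT and 4, 8.60 and 4.49 CPM in *1mlpa* (3.66 ± 0.41, SE). Among the lower ones were Glyma.19G192000, with 1.58, 5.42 and 5.62 CPM against 0.441, 0.554 and 1.30 CPM (−2.23 ± 0.37, SE), and Glyma.17G084700, with 4.58, 21 and 15.7 CPM against 2.24, 4.53 and 4.45 CPM, whose groups touch closely (−1.61 ± 0.34, SE). The call of Glyma.17G084700 was lost without 1MWT replicate 2 or 3 or *1mlpa* replicate 1 of stage 1. The homologs of WRKY15, Glyma.17G168900 and Glyma.05G096500, were lower too (−1.59 and −1.21). Glyma.05G058100, the lactate dehydrogenase homolog, had 3.39, 6.85 and 5.06 CPM in 1MWT and 13.2, 16.8 and 15 CPM in *1mlpa* (1.81 ± 0.23, SE).

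Dry seed of *3mlpa* had 4 members higher and 1 lower than 3MWT (2.86% and 1.21% of all genes), and on library totals 1 and 1 (0.775% and 0.957%). Glyma.05G151100, the homolog of a bifunctional aspartate kinase and homoserine dehydrogenase of amino acid synthesis, had 0.182, 0 and 0.746 CPM in 3MWT and 2.54, 5.12 and 1.18 CPM in *3mlpa* (3.42 ± 0.56, SE, edgeR adjusted p = 0.00103). Glyma.11G178300 was the lower one, with 16.3, 13.1 and 13 CPM against 3.6, 5.51 and 4.04 CPM (−1.35 ± 0.24, SE). Both groups are apart in each gene, and the call of Glyma.11G178300 was lost without *3mlpa* stage 1 replicate 1. Glyma.16G105300 and Glyma.05G058100 were called higher in dry seed of both *1mlpa* and *3mlpa*, an overlap that was not counted over all genes. The number for *3mlpa* was unstable, 13 without *3mlpa* stage 1 replicate 2, 11 without 3MWT stage 1 replicate 3, and 2 or 3 without any of 10 other libraries. A fit to the 6 dry libraries alone called 0 with edgeR. DESeq2 on all libraries of the fit called 13 members higher and 4 lower, and it called 2023 and 675 of all genes.

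At 8 h the fewest members were called. In *1mlpa* 6 members were higher and 3 lower than in 1MWT (2.02% and 1.61% of all genes), and on library totals the split was 2 and 6 (0.824% and 3.27%). In *3mlpa* 3 were higher and none lower than in 3MWT (0.377% and 0.432%). Glyma.07G189500 had 9.42, 6.24 and 9.88 CPM in 1MWT and 25.5, 20.7 and 29.3 CPM in *1mlpa* (1.83 ± 0.27, SE, edgeR adjusted p = 0.000294). Glyma.11G223200 had 56.9, 69.9 and 64.6 CPM against 122, 143 and 145 CPM (1.38 ± 0.25, SE). Lower were Glyma.13G361700, with 48.8, 49.4 and 60.3 CPM against 16.5, 20.8 and 7.54 CPM (−1.56 ± 0.31, SE), and Glyma.02G212700, with 41, 71 and 44.2 CPM against 16.9, 22.2 and 16.3 CPM (−1.21 ± 0.24, SE). In none of the 4 did the groups overlap. Both calls of lower genes were lost without *1mlpa* replicate 1 or 3, that of Glyma.13G361700 also without 1MWT replicate 3, and that of Glyma.02G212700 also without 1MWT replicate 2 of stage 2.

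In *3mlpa*, Glyma.19G033500, the COBRA homolog, had 46.6, 70.6 and 40.8 CPM at 8 h against 14.4, 14.7 and 7.92 CPM in 3MWT (2.30 ± 0.33, SE, edgeR adjusted p = 0.000563). The expansin-like Glyma.11G096700 had 119, 111 and 77.6 CPM against 45.5, 46.8 and 24.4 CPM (1.59 ± 0.27, SE), and was the only member called higher at stage 2 in *1mlpa* too, with 105, 76.6 and 121 CPM against 43.5, 51.4 and 52.9 CPM. The call of Glyma.11G096700 in *3mlpa* was lost without *3mlpa* replicate 1 or 2 or any 3MWT replicate of stage 2. Genes called higher at stage 2 in both *1mlpa* and *3mlpa* were not counted over all genes. The third was Glyma.03G244600, an acyltransferase (1.33 ± 0.23, SE). The number for *1mlpa* was 3, 4, 5 and 5 without *1mlpa* replicate 3, 1MWT replicate 3, *1mlpa* replicate 1 and 1MWT replicate 2 of stage 2. The number for *3mlpa* was 1 without *3mlpa* replicate 1 or 2 or any 3MWT replicate of stage 2, 5 without *3mlpa* stage 1 replicate 2 and 7 without 3MWT stage 1 replicate 2. A fit to the 6 stage 2 libraries alone called 18 in *3mlpa*, and its share of all genes is not given here.

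At radicle emergence the most members were called, nearly all of them higher in *1mlpa* and *3mlpa* than in their normal lines. In *1mlpa* 42 were higher and 1 lower than in 1MWT, where 4.29% and 0.660% of all genes were, and in *3mlpa* 20 were higher and 0 lower than in 3MWT, where 2.89% and 0.751% were. The share of members higher was 21% and 10%. The median log2 fold change of the members was 0.31 in *1mlpa* and 0.25 in *3mlpa*, against −0.04 and −0.06 for all genes. Members called higher in both numbered 19, which is 45.2% of the 42 and 95% of the 20. Over all genes tested in both fits, 498 were higher in both, 37.8% of those higher in *1mlpa* and 58.6% of those higher in *3mlpa*. The remaining *3mlpa* gene was Glyma.04G012500, the homolog of the light-response factor CIB1, with 44.1, 21.3 and 23.5 CPM in 3MWT and 82.1, 84.4 and 74.9 CPM in *3mlpa*. Of the 23 called only in *1mlpa*, 20 (87.0%) had a fitted log2 fold change above 0 in *3mlpa*, as had 91.6% of all genes called only in *1mlpa*. The number changed in *1mlpa* was 25 without 1MWT replicate 1, 23 without 1MWT replicate 2 and 27 without *1mlpa* replicate 3 of stage 3. That in *3mlpa* was 13 without *3mlpa* replicate 3, 12, 11 and 12 without 3MWT replicates 1, 2 and 3, and 8 on library totals, where 1.83% of all genes were higher.

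**Figure D4:**
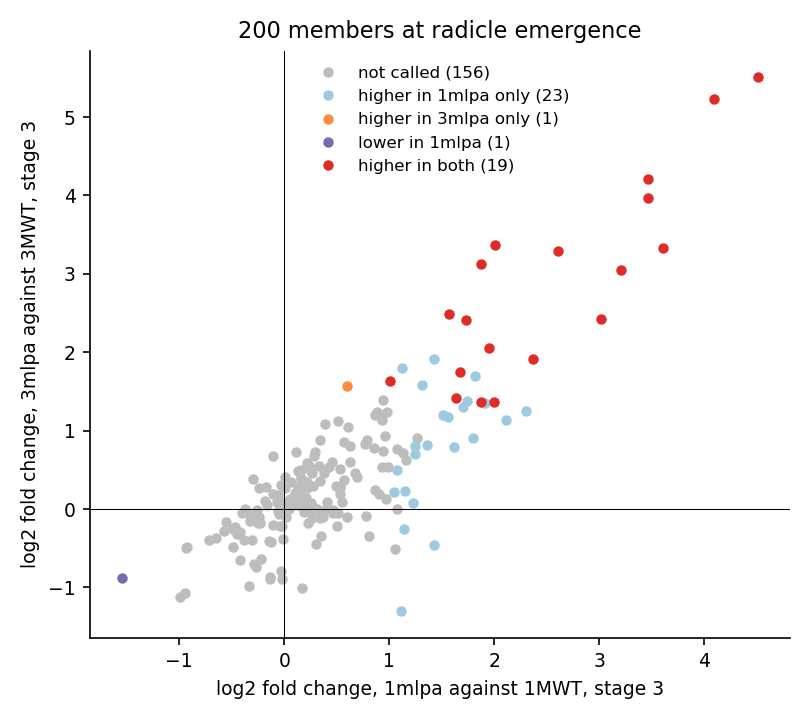
Log2 fold change at stage 3 of each member in *1mlpa* against 1MWT (horizontal) and in *3mlpa* against 3MWT (vertical), fitted with TMM factors. The 19 members called higher in both range from 1.01 to 4.51 on the horizontal axis and from 1.37 to 5.50 on the vertical axis.

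The largest differences were in the pyruvate decarboxylase homolog Glyma.03G055100. At stage 3 it had 2.57, 5.20 and 15.8 CPM in 1MWT and 104, 114 and 309 CPM in *1mlpa*, a log2 fold change of 4.51 ± 0.60 (SE, edgeR adjusted p = 8.66e-05). In 3MWT it had 2.49, 2.71 and 3.52 CPM and in *3mlpa* 80.3, 135 and 145 CPM, a log2 fold change of 5.50 ± 0.50 (SE, adjusted p = 9.12e-06). Over these 4 lines all *lpa* libraries were at or above 80.3 CPM and all normal ones at or below 15.8 CPM. At 8 h it had 15.2, 30.5 and 18.3 CPM in 1MWT and 21.6, 15.8 and 26.3 CPM in *1mlpa*, with overlapping groups, and 7.73, 6.44 and 1.88 CPM in 3MWT and 6.26, 11.8 and 6.08 CPM in *3mlpa*, also overlapping. At stage 3 *2mlpa* had 13.1, 7.36 and 6.58 CPM of it. The stage 3 means of the normal lines 2MWT, 2MWT-L and 2MWT-N were 27.4, 7.77 and 23.1 CPM.

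Glyma.16G212200 at stage 3, with the CPM given above, was 4.09 ± 0.65 (SE) higher in *1mlpa* and 5.22 ± 0.50 (SE) higher in *3mlpa* on the log2 scale. The COBRA homolog Glyma.19G033500 had 2.74, 6.63 and 8.66 CPM in 1MWT and 46.6, 56.4 and 91.4 CPM in *1mlpa* (3.47 ± 0.36, SE), and 6.89, 8.88 and 7.84 CPM in 3MWT and 86.1, 93.8 and 157 CPM in *3mlpa* (3.97 ± 0.35, SE). The PGIP1 homolog Glyma.08G078900 had 4.10, 9.48 and 17.3 CPM in 1MWT and 68.3, 114 and 186 CPM in *1mlpa* (3.61 ± 0.55, SE), and 16.6, 20.03 and 22.3 CPM in 3MWT and 171, 168 and 203 CPM in *3mlpa* (3.33 ± 0.30, SE). In all 3 genes the groups lie apart in both comparisons. The hexose carrier homolog Glyma.01G238800 had 6.34, 11.8 and 31.6 CPM in 1MWT and 77.5, 141 and 230 CPM in *1mlpa* (3.21 ± 0.47, SE), and 18.2, 35.9 and 35.4 CPM in 3MWT and 164, 262 and 250 CPM in *3mlpa* (3.05 ± 0.60, SE). Glyma.18G011600, one of the most abundant of these, had 51.5, 119 and 154 CPM in 1MWT and 458, 558 and 913 CPM in *1mlpa* (2.61 ± 0.35, SE), and 121, 117 and 103 CPM in 3MWT and 612, 1170 and 1240 CPM in *3mlpa* (3.29 ± 0.40, SE). For the genes of this paragraph in order, the stage 3 means in 2MWT were 97.7, 23.7, 69.2, 136 and 383 CPM. The means in 2MWT-L were 9.01, 6.15, 8.87, 16.1 and 159 CPM, and in 2MWT-N 34.3, 15.8, 37.5, 65.4 and 229 CPM. Those in *1mlpa* were 67.4, 64.8, 123, 150 and 643 CPM. The 2MWT means include its high replicate 3, described below.

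Glyma.16G105300, higher in *1mlpa* in dry seed, was higher at stage 3 too, with 9.23, 11.9 and 18 CPM in 1MWT and 91.0, 130 and 201 CPM in *1mlpa* (3.47 ± 0.33, SE), and 12.4, 14.0 and 16.1 CPM in 3MWT and 214, 227 and 275 CPM in *3mlpa* (4.20 ± 0.55, SE). The expansin-like Glyma.11G096700 was higher by 2.37 ± 0.32 (SE) and 1.92 ± 0.28 (SE) on the log2 scale. The lactate dehydrogenase homolog Glyma.05G058100 had 99, 120 and 120 CPM in 1MWT and 393, 288 and 477 CPM in *1mlpa* (1.80 ± 0.22, SE). In *3mlpa* its log2 fold change was 0.90 ± 0.32 (SE, edgeR adjusted p = 0.0972), with non-overlapping groups. The receptor-like kinase homolog Glyma.01G182400 was higher in both (1.87 ± 0.26 and 1.37 ± 0.31, SE). The 1 member lower at stage 3 was the alpha-xylosidase Glyma.01G081300, with 165, 185 and 107 CPM in 1MWT and 55.3, 62.9 and 37.1 CPM in *1mlpa* (−1.54 ± 0.37, SE, edgeR adjusted p = 0.00945), a call that was lost without any of 11 of the 18 libraries of the fit. Of the 42 members higher in *1mlpa*, 7 were also higher in dry seed and 5 at stage 2. The same overlaps were not counted over all genes.

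The 19 members that were higher in both were chosen on the stage 3 libraries of these 4 lines, so that the following sums are a description. Together they held 640, 828 and 1022 CPM at stage 3 in 1MWT and 2887, 3264 and 4927 CPM in *1mlpa*, and 951, 996 and 1032 CPM in 3MWT and 3642, 5070 and 5588 CPM in *3mlpa*. At stage 2 the sums were 1172 to 1472 CPM in 1MWT, 1517 to 1751 CPM in *1mlpa*, 845 to 1275 CPM in 3MWT and 1279 to 1788 CPM in *3mlpa*. The stage 3 mean was below the stage 2 mean for 15 of the 19 in 1MWT and 13 in 3MWT, but for none in *1mlpa* or *3mlpa*. Over all 200 members it was below in 59, 48, 12 and 22 in that order. In *2mlpa* the sum was 1454, 1764 and 1820 CPM at stage 3. There 10 of the 19 had the lower mean at stage 3, as had 32 of all 200 members. The *2mlpa* mean lay above those of 2MWT, 2MWT-L and 2MWT-N for 3 of the 19, and for 6 without 2MWT stage 3 replicate 3. Of all 200 members it lay above in 56, and in 65 without that library. In the normal lines the sums were 764 to 1342 CPM in 2MWT-L and 851 to 2057 CPM in 2MWT-N. In 2MWT they were 1222, 1340 and 4172 CPM. The last is replicate 3, which was the highest 2MWT library at stage 3 for all 19 genes. In 1MWT, replicate 3 was the highest stage 3 library for 14 of the 19. The same counts were not made over all members or all genes. Summed at stage 3, the other members were also highest in replicate 3 of both lines. They held 17223.7, 14101.3 and 20356.3 CPM in 2MWT and 20415.6, 20827.1 and 21318.5 CPM in 1MWT. Without 2MWT stage 3 replicate 3 the rule chose 187 of the 200 again, and 6 of the 13 lost were among the 19.

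The study named these LEA genes as targets that differed in both *1mlpa* and *3mlpa* in these same libraries, most of them higher. Higher sums in those lines thus follow in part from how the list was made. With that limit, the LEA genes, a marker list of mature seed, moved with the sums of the 19 in part. At stage 3 all 6 together held 374 to 1008 CPM in 1MWT and 1340 to 1673 CPM in *1mlpa*, and 1172 to 1541 CPM in 3MWT and 2018 to 2822 CPM in *3mlpa*. They held 341 to 1166 CPM in *2mlpa* and 493 CPM in 2MWT replicate 3, the library with the high sum of the 19. The part of the LEA genes in the differences at stage 3 was not tested, and the 4 storage protein genes were not summed by line.

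**Figure D5:**
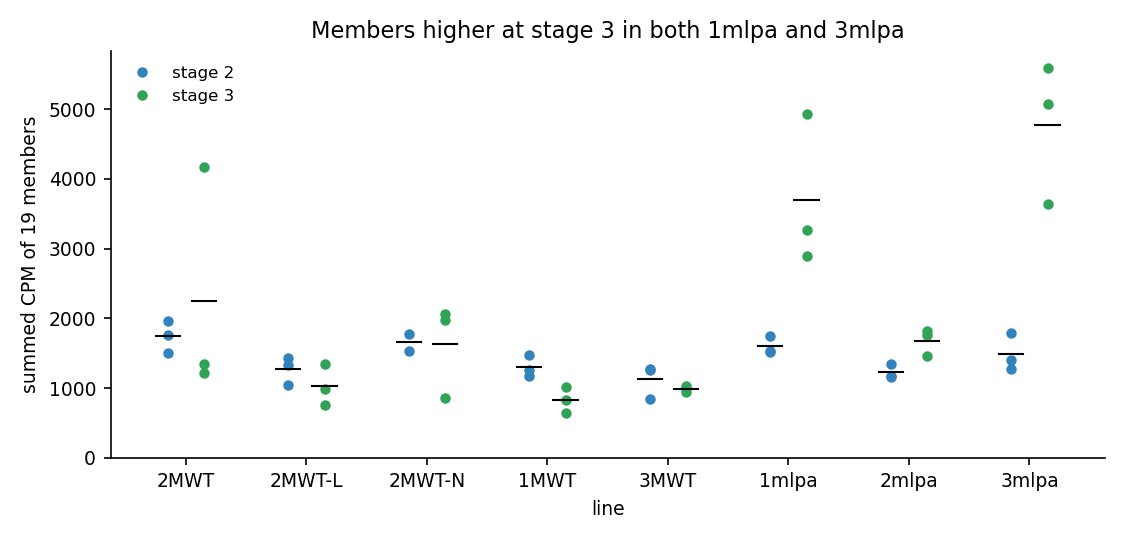
Summed CPM of the 19 members called higher at stage 3 in both *1mlpa* and *3mlpa*, by line, at stages 2 and 3. Points are libraries and lines are means. The stage 3 libraries of *1mlpa* and *3mlpa* lie between 2887 and 5588 CPM and those of all other lines between 640 and 2057 CPM, except 2MWT replicate 3 with 4172 CPM.

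The line *2mlpa* is described beside the 3 normal lines that chose the members, and so with no test. At stage 2 its mean lay below the means of 2MWT, 2MWT-L and 2MWT-N in 152 members (76%) and above all of them in 13 (6.5%). Of all genes that met both limits 67.1% lay below and 9.21% above. The 6 LEA genes together held 17305 to 20734 CPM in *2mlpa* at that stage and 10925 to 16361 CPM in the 3 normal lines, and their part in this order was not tested. At stage 3 it lay below in 38 (19%, against 35.8% of those genes) and above in 56 (28%, against 28.7%). In dry seed it lay below in 18 (9%, against 22.1%) and above in 80 (40%, against 26.9%). Glyma.17G164100 stood at 27.2, 137 and 47.6 CPM at stage 2 and 503, 372 and 325 CPM at stage 3, and within *2mlpa* it rose with a log2 fold change of 1.93 ± 0.45 (SE, edgeR adjusted p = 0.0023). Glyma.04G100400, the highest by rank, stood at 49.4, 106 and 72.2 CPM at stage 2 and 123, 119 and 65.6 CPM at stage 3. The amino acid carrier homolog Glyma.16G062600 fell within *2mlpa* from 138, 153 and 164 CPM to 66.4, 95.0 and 71 CPM (−1.59 ± 0.18, SE). Glyma.17G164100 and Glyma.16G062600 were chosen here after their values were seen.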

How the data were processed

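Raw counts per gene for 72 libraries, in 2 tables, were deposited by the authors, who aligned reads to Wm82.a2.v1 with STAR 2.5.2b and counted those with a single position in a single gene with featureCounts 1.5.1. Counting ignored strand, so reads of a gene and of one overlapping it on the other strand cannot be told apart. CPM is the count over the library's total, times 1000000. The 71 libraries held between 20295984 and 39759526 counts.

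The members and gene lists were chosen with earlier results of these data known. Tests used edgeR 4.0.16 (quasi-likelihood, R 4.3.3, TMM factors), with genes over a mean normalized count of 10, in fits of 18 libraries (1MWT and *1mlpa*), 18 libraries (3MWT and *3mlpa*) and 9 libraries (*2mlpa*). Genes were called at FDR under 0.01 and a change over 2-fold, the Benjamini-Hochberg adjustment running over all genes tested. All 200 members passed the filter in each fit. Fits were tried on simulated counts in which a small set of genes was raised and the dispersion was the same for all genes. The simulation had no broad shift between stages, so it does not test the comparisons with dry seed under such a shift. SE is the absolute log2 fold change over the root of F. The replicates are samples of seed of 1 line, so p-values measure only the spread between these samples. None of 70 replicate pairs agreed within sampling noise.

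Genes named were the 12 highest by rank, the 6 most abundant at stage 2, the 2 largest calls per comparison and direction with groups that do not overlap, those at the thresholds, the 3 weakest risers and, as stated, others chosen after their values were seen, which includes the annotated members. Alternatives were DESeq2 1.42.0, RLE, upper-quartile and library-total scaling, no filter, FDR under 0.05, a replicate block, fewer libraries in the fit, and each library left out. No sequences were matched to these gene models and no motif was searched.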

Additional observations from a re-analysis of the deposited data

Results flagged for a closer look

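The change between stages differed between an *lpa* line and its normal line, by the interaction term in edgeR, for 20 combinations of member and stage pair. All values are log2 differences, the *lpa* line minus the normal line, and none was weighed further. From stage 1 to stage 2, *1mlpa* rose less than 1MWT for 4 members. They were Glyma.13G068800 (−4.69, adjusted p = 0.00254), Glyma.18G011600 (−2.58, adjusted p = 0.00834), Glyma.03G244600 (−2.36, adjusted p = 0.00027) and Glyma.18G219100 (−1.66, adjusted p = 0.00897). The dry libraries held 3.20, 5.30 and 3.16 CPM of Glyma.18G011600 in 1MWT and 22.8, 24.7 and 17.9 CPM in *1mlpa*, and 1.23, 2.43 and 2.02 CPM of Glyma.03G244600 in 1MWT and 9.92, 11.4 and 8.97 CPM in *1mlpa*. The number was 10 without 1MWT stage 1 replicate 1 and 1 or 2 without any of 10 other libraries.

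From stage 1 to stage 3, 6 members rose more and 5 less in *1mlpa* than in 1MWT. Those that rose more were Glyma.11G096700 (2.38), Glyma.13G114000 (2.12), Glyma.17G168900 (1.86), Glyma.15G118400 (1.78), Glyma.05G096500 (1.70) and Glyma.13G202500 (1.08). Those that rose less were Glyma.13G068800 (−4.25), Glyma.03G244600 (−2.39), Glyma.11G254000 (−2.28), Glyma.11G077700 (−1.86) and Glyma.10G043600 (−1.36). The number was 17 without 1MWT stage 1 replicate 1, 7 without 1MWT stage 3 replicate 2 and 6 without *1mlpa* stage 3 replicate 3. In *3mlpa* 1 member rose more than in 3MWT, namely Glyma.10G295300 (2.41, edgeR adjusted p = 0.00516). The number was 12, 5 and 4 without *3mlpa* stage 1 replicate 2, *3mlpa* stage 1 replicate 3 and 3MWT stage 1 replicate 3, and 0 without *3mlpa* stage 1 replicate 1 or replicate 2 or 3 of stage 3 of either line.

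From stage 2 to stage 3 the differences were those of Glyma.19G033500 in *1mlpa* (3.05) and of Glyma.16G212200 (5.23), Glyma.03G055100 (4.70) and Glyma.08G078900 (3.21) in *3mlpa*. The genes of this paragraph were found with a contrast added after the values had been seen.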

How the results depend on the processing

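Of the counts under alternatives other than leaving out a library, 181 stayed within 1.5 times the reported count and 36 did not. No named gene reversed under any of these, and 9 of 136 values for named genes missed the threshold. The rise from stage 1 was within 1.5 times its count in every alternative. What follows are members changed, with the reported count first, and the cause of each move was not tested. With FDR under 0.05, stage 2 to 3 in 3MWT went from 2 to 6, dry *3mlpa* from 5 to 16, *3mlpa* at stage 2 from 3 to 6, the interactions of *1mlpa* from 4 to 14 (stage 1 to 2), 11 to 23 (stage 1 to 3) and 1 to 9 (stage 2 to 3), and that of *3mlpa* from stage 1 to 3 from 1 to 10. With DESeq2 the same results were 4, 17, 9, 18, 22, 12 and 13, and the other interactions of *3mlpa* were 8 in place of 0 (stage 1 to 2) and 11 in place of 3 (stage 2 to 3). DESeq2 also called more of all genes in each of these results. In dry *3mlpa* it called 2023 of all genes higher and 675 lower, in place of 879 and 371. On library totals, chosen after seeing the data, stage 2 to 3 gave 84 in *1mlpa* in place of 34, 88 in *2mlpa* in place of 45 and 5 in 3MWT, *3mlpa* against 3MWT gave 2, 1 and 8 at the 3 stages in place of 5, 3 and 20, and the interactions gave 7 (stage 1 to 3) and 5 (stage 2 to 3) in *1mlpa* and 0 (stage 1 to 3) in *3mlpa*. With RLE and upper-quartile factors the *3mlpa* interaction from stage 1 to 3 was 3 and 3. With no filter it was 4, dry *3mlpa* was 12 and the *1mlpa* interaction from stage 2 to 3 was 9. Fitting only the 6 libraries compared gave 7 in dry *1mlpa* in place of 23, 0 in dry *3mlpa* and 18 in *3mlpa* at stage 2. Shares of all genes are not given for FDR under 0.05, no filter or fewer libraries, so those counts have no background here.

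Replicate numbers were not taken to pair the samples, since not every same-numbered pair correlated above 0.1. Same-numbered libraries had correlations of their deviations from −0.21 to 0.23 in the 1MWT and *1mlpa* fit and from −0.36 to 0.24 in the 3MWT and *3mlpa* fit. Of the libraries, 13 of 18 and 6 of 18 correlated best with their own number, the first a hint of shared variation under a number in the 1MWT and *1mlpa* fit. A replicate block gave 3 for the *1mlpa* interaction from stage 2 to 3, 2 for dry *3mlpa* and 0 for the *3mlpa* interaction from stage 1 to 3, and left every other count within 1.5 times.

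Leaving out each library in turn, members higher at stage 2 than stage 1 ranged from 199 to 200 in 1MWT and *1mlpa*, 194 to 200 in 3MWT, 184 to 199 in *3mlpa* and were 200 in *2mlpa*. At stage 3 against stage 1 the ranges were 198 to 200, 199, 195 to 199, 197 to 200 and 198 to 199. Between stages 2 and 3 they were 22 to 38, 23 to 41, 1 to 5, 19 to 36 and 33 to 52. For *1mlpa* against 1MWT they were 18 to 28, 3 to 11 and 23 to 45 at stages 1, 2 and 3, and for *3mlpa* against 3MWT 2 to 13, 1 to 7 and 11 to 26. The interactions ranged from 1 to 10, 6 to 17 and 0 to 4 in *1mlpa*, and 0 to 3, 0 to 12 and 2 to 7 in *3mlpa*. The rule chose 186 to 198 of the members again without 1 library, 162 with TMM-scaled CPM, 178 with the near-empty library kept, 171 with an offset of 0.1 and 172 to 175 without 1 line. Members with dry levels near 0 have few counts there, and in the 5 tested lines 63 had none in at least 1 dry library (34 without 3MWT stage 1 replicate 2), which limits the precision of their fold changes.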
